A study of Mus musculus with 21 samples.

Results

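The mesoderm regulators described here are 10 genes taken by name: Hand1, Hand2, Tbx20, Isl1, Foxf1, Foxc1, Meox1, Twist1 and Snai2, which encode transcription factors, and Kdr, which encodes a receptor for vascular endothelial growth factor (VEGF). Each symbol matched 1 protein-coding row, so they are 10 of the 78317 gene rows of the deposited tables. RNA was sequenced from cells of E14, a mouse embryonic stem cell line, in 21 libraries of 7 groups with 3 libraries each. The groups were cells given vitamin B6 (VB6) as 20 µM pyridoxine and collected at days 3, 5 and 7, cells given vehicle and collected on the same days, and untreated cells in standard culture (ES). No genetic change is named, the way in which differentiation was started is not stated, and a single line was used. The series title names endoderm, the germ layer of gut and liver, so these genes belong to a layer other than the one the treatment was studied for.

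Mesoderm is the middle germ layer and forms heart, vessels, blood, muscle, skeleton and connective tissue. In the mouse embryo it arises at the primitive streak under BMP, Wnt, Nodal and FGF signals, and its regions then take up different transcription factors: Hand1, Hand2, Tbx20, Isl1 and Foxf1 in lateral plate, heart and extraembryonic mesoderm, Foxc1 and Meox1 in paraxial mesoderm and somites, and Kdr in the precursors of blood and vessels. Several of these genes also work elsewhere, such as Hand1 in trophoblast giant cells, Isl1 in motor neurons and pancreatic endocrine cells, and Twist1 and Snai2 in neural crest, so that RNA of 1 of them in a mixed culture does not by itself name a cell type.

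Positions are given on mm10 from GENCODE M21. The heart and lateral plate genes are Hand1 (chr11:57828705-57832818, minus strand), Hand2 (chr8:57320983-57324633, plus strand), Tbx20 (chr9:24718138-24774303, minus strand), Isl1 (chr13:116298281-116309689, minus strand) and Foxf1 (chr8:121084386-121088144, plus strand). Kdr is at chr5:75932827-75978458 on the minus strand. Foxc1 (chr13:31806633-31812476, plus strand) and Meox1 (chr11:101877510-101894374, minus strand) are the paraxial genes, and Twist1 (chr12:33957671-33959829, plus strand) and Snai2 (chr16:14705852-14709385, plus strand) are the genes of epithelial to mesenchymal transition. Hand2, Foxf1 and Meox1 overlap other annotated genes (Hand2os1; Gm20388 and Gm27530; Gm11551), and since strand use in counting is not given, reads of the overlapping pairs cannot be told apart.

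The bases upstream of the transcription start were looked at because 8 of the 10 genes had their highest mean level in a day 7 group while Twist1 had its highest mean in ES cells. The RefSeq promoter table (GRCm38.p6) holds 6 of the 10, namely Kdr, Hand2, Tbx20, Twist1, Foxc1 and Isl1. The 250 bases before the start are shown for 3 genes that rose late, Foxc1 (chr13:31806396-31806645, plus strand), Isl1 (chr13:116309689-116309938, minus strand) and Kdr (chr5:75978456-75978705, minus strand), and for Twist1 (chr12:33957421-33957670, plus strand), which is set against them. Each runs 5′ to 3′ on the strand of its gene, and capitals mark the motifs searched.
Foxc1: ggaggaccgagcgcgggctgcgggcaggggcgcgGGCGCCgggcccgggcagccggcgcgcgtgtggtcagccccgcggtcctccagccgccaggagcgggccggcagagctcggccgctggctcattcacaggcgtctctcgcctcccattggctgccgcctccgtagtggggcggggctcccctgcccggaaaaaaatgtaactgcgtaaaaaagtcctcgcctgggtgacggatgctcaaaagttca
Isl1: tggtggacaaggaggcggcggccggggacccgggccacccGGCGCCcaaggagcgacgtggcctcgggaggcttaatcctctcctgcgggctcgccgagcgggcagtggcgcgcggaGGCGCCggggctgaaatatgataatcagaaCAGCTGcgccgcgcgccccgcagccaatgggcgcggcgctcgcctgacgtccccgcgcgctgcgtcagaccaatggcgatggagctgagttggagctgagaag
Kdr: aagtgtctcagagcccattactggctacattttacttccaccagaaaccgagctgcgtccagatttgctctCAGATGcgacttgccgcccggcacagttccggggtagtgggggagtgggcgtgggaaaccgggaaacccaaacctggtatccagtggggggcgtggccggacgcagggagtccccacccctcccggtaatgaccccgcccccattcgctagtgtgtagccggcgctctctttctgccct
Twist1: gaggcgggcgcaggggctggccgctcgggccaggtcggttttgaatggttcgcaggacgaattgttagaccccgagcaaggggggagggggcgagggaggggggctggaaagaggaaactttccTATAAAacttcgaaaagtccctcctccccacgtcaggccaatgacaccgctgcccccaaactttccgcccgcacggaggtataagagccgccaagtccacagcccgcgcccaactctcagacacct
The motifs were searched by their letters on both strands: the E-box CANNTG, the GATA motif AGATAA, the TATA box TATAAA, the SMAD motif GGCGCC and the TCF motif CTTTGA, none of which shares a position with another here. The capitals in Foxc1 are 1 SMAD motif, those in Isl1 are 2 SMAD motifs and 1 E-box, the single site in Kdr is an E-box, and that in Twist1 is the TATA box, 126 to 121 bases before the start. Of the 6 members in the table, 3 held an E-box, against 66.2% of all 32851 promoters. The SMAD motif was in 3 of the 6, against 9.59% of all promoters, the GATA motif in 1, against 9.99%, and the TATA box in 1, against 12.4%. The TCF letters were in none of the 6, against 13.8%. These are matches of letters and were not tested. GC content was 70.8% in Foxc1, 71.2% in Isl1, 68.8% in Tbx20, 62.4% in Twist1, 61.6% in Kdr and 49.2% in Hand2, against a median of 52.4% over all promoters.

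Depth was between 15882380 and 21629730 expected counts in a library (median 17972485). Levels are given as CPM, the deposited expected counts scaled to a common library total with TMM factors, and as the authors' TPM where genes are set against each other, since TPM is per transcript length. The summed level of 8 pluripotent cell genes, which were all read in the ES group, was 3270 to 3700 CPM in ES libraries. Libraries of 2 groups stood apart: fragment length derived from the deposited values was 266 ± 7.8 nt in VB6 day 7 and 227 ± 8.7 nt in vehicle day 5 (SD, n = 3 each), while the means of the remaining 5 groups lay between 307 and 312 nt. Ribosomal protein genes took 3.25% of counts in VB6 day 7 and 3.32% in vehicle day 5, against 5.46 to 6.54% elsewhere, and mitochondrial genes took 3.32% and 4.33%, against 1.76 to 2.79%. At day 5 and at day 7 this property and the arm cannot be told apart, so the values after a correction for GC content and length are given beside the results that they change. In bulk RNA, fewer cells of a type and less RNA per cell cannot be told apart.

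Counts of these genes were low, and libraries of a group also differed by more than counting error over all genes. The filter for testing (0.556 CPM in at least 3 libraries) passed 8 of the 10 genes. Hand2 had 43 counts in all and 0 in 12 libraries, and Meox1 had 46 counts in all, so both are described but not tested. Foxf1, Isl1 and Foxc1 reached the filter in all 3 libraries of a group only at day 7, so that they could enter the test only by being high there, and the counts of genes that follow are a description.

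**Figure D1:**
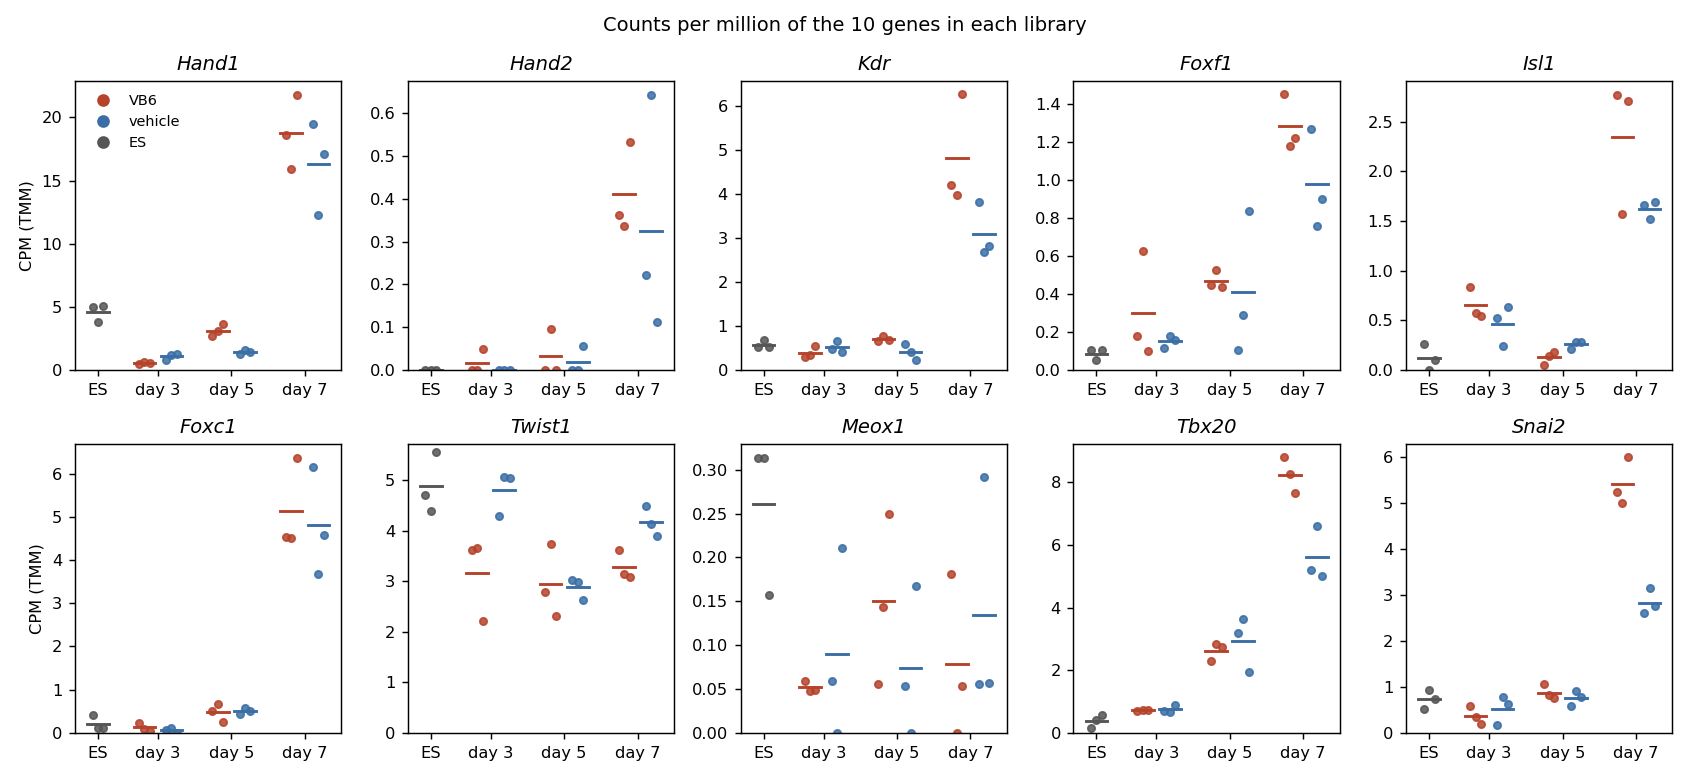
CPM (y axis, from 0, with its own scale in each panel) of the 10 genes in all 21 libraries, grouped along the x axis as ES and days 3, 5 and 7 with VB6 left of vehicle; points are libraries and bars are group means. Most panels are near the axis until day 7, where Hand1 reached 21.8 CPM in a VB6 library, while Twist1 lay between 2.22 and 5.56 CPM in all libraries and Meox1 had no more than 0.314 CPM in any.

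Hand1, the transcription factor of early heart and extraembryonic mesoderm, had the highest level of the set at day 7 and was present before differentiation. It had 5.02, 3.81 and 5.04 CPM in ES libraries. At day 3 it had 0.476, 0.626 and 0.593 CPM with VB6, against 0.824, 1.2 and 1.26 CPM with vehicle. At day 5 it had 2.68, 3.12 and 3.62 CPM with VB6, against 1.3, 1.61 and 1.45 CPM with vehicle. The VB6 libraries thus lay below all vehicle libraries at day 3 and above all of them at day 5. At day 7 the values were 18.6, 15.9 and 21.8 CPM with VB6, against 19.5, 12.3 and 17.1 CPM with vehicle, and the arms overlapped.

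Tbx20, a T-box factor of the cardiac crescent and heart, rose by counts from day 3 to day 5 and again to day 7 in both arms. It had 0.713, 0.722 and 0.741 CPM with VB6 at day 3, against 0.706, 0.662 and 0.895 CPM with vehicle, and 0.157, 0.418 and 0.577 CPM in ES libraries. At day 5 it had 2.29, 2.83 and 2.75 CPM with VB6, against 3.19, 3.63 and 1.96 CPM with vehicle. Up to this day the arms overlapped. At day 7 it had 8.8, 8.27 and 7.65 CPM with VB6, against 5.21, 6.6 and 5.02 CPM with vehicle, and every VB6 library lay above every vehicle library.

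Isl1, a LIM homeobox factor of second heart field progenitors, was lower at day 5 than at day 3 with VB6 and rose late in both arms. In ES libraries it had 0.262, 0 and 0.105 CPM. At day 3 it had 0.832, 0.578 and 0.544 CPM with VB6, against 0.53, 0.241 and 0.632 CPM with vehicle, and at day 5 it had 0.0559, 0.144 and 0.187 CPM with VB6, against 0.216, 0.288 and 0.28 CPM with vehicle. The 3 VB6 libraries of day 5 held 1, 3 and 3 counts and the vehicle libraries 4, 5 and 5, so the separation of the arms there rests on few reads. At day 7 Isl1 had 2.77, 1.57 and 2.71 CPM with VB6, against 1.66, 1.52 and 1.69 CPM with vehicle, above every library of the earlier days.

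Foxf1, a forkhead factor of lateral plate and extraembryonic mesoderm, stayed at or under 0.839 CPM in all libraries before day 7. At day 7 it had 1.45, 1.18 and 1.22 CPM with VB6, against 1.27, 0.759 and 0.902 CPM with vehicle. Both arms of day 7 overlapped in CPM, while in TPM each VB6 library lay above each vehicle library, and 1 vehicle library of day 5 (0.839 CPM, 15 counts) reached their range while the other 2 of that group had 0.108 and 0.288 CPM. Hand2, the paralogue of Hand1 in the heart and limb, had 4 counts in all over the 15 libraries of ES cells and days 3 and 5. At day 7 it had 6, 6 and 10 counts with VB6, against 4, 11 and 2 counts with vehicle. The vehicle day 3 libraries had 0 counts, and a limit of 3 counts was set over that group. The observed level was 7.56-fold that limit in VB6 day 7 (22 counts) and 5.84-fold in vehicle day 7 (17 counts). The day 7 counts were taken as observed, without a limit for their own counting error.

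Kdr, the VEGF receptor that marks precursors of vessels and blood, was at or under 0.768 CPM in every library before day 7. It had 0.523, 0.679 and 0.525 CPM in ES libraries. At day 5 it had 0.671, 0.768 and 0.687 CPM with VB6, against 0.594, 0.403 and 0.224 CPM with vehicle. At day 7 it had 4.22, 3.99 and 6.27 CPM with VB6, against 3.82, 2.68 and 2.82 CPM with vehicle. On both days every VB6 library lay above every vehicle library in CPM, though in TPM the arms overlapped at day 5, while at day 3 the arms overlapped, with means of 0.393 ± 0.132 CPM with VB6 and 0.518 ± 0.127 CPM with vehicle (SD, n = 3 each).

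The paraxial genes moved in different ways. Foxc1, a forkhead factor of paraxial mesoderm and later of cartilage and vessels, had 0.238, 0.0963 and 0.0494 CPM with VB6 at day 3, against 0.0589, 0.12 and 0 CPM with vehicle. At day 5 it averaged 0.475 ± 0.212 CPM with VB6 and 0.504 ± 0.0719 CPM with vehicle. At day 7 it had 4.52, 4.5 and 6.37 CPM with VB6, against 6.15, 3.68 and 4.57 CPM with vehicle. The arms of Foxc1 overlapped on each day. Meox1, a homeobox factor of the somites, had its highest mean in ES cells (0.262 ± 0.0903 CPM, from 6, 6 and 3 counts), and its libraries overlapped with those of VB6 day 5, the next group in order.

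Snai2, a repressor of epithelial genes, and Twist1, a helix-loop-helix factor of mesenchyme, had unlike courses. Snai2 was at or under 1.06 CPM in every library before day 7. At day 7 it had 5.24, 5.01 and 6 CPM with VB6, against 2.6, 3.15 and 2.76 CPM with vehicle, with a wide gap between the arms. Twist1 was read at 4.71, 4.39 and 5.56 CPM in ES libraries. At day 3 it had 3.63, 3.66 and 2.22 CPM with VB6, against 4.3, 5.06 and 5.05 CPM with vehicle, and at day 7 it had 3.62, 3.15 and 3.08 CPM with VB6, against 4.49, 4.14 and 3.89 CPM with vehicle. Each VB6 library was below each vehicle library on these days in CPM, though in TPM the arms overlapped at day 7, and at day 5 the arms overlapped at 2.95 ± 0.727 CPM with VB6 and 2.88 ± 0.22 CPM with vehicle.

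Per length, the order of the genes changed between day 5 and day 7. In TPM, Twist1 was highest in ES cells (4.63 ± 0.368 TPM), at day 3 (2.71 ± 0.684 TPM with VB6 and 4.29 ± 0.468 TPM with vehicle) and at day 5 (2.83 ± 0.645 TPM with VB6 and 3.25 ± 0.28 TPM with vehicle), though the VB6 libraries of day 5 held Hand1 at 2.5 ± 0.458 TPM, within the spread of Twist1. At day 7 Hand1 was highest, at 18.3 ± 2.9 TPM with VB6 and 13.4 ± 3.28 TPM with vehicle. Snai2 came next with VB6 (4.94 ± 0.486 TPM), then Twist1 (3.85 ± 0.303 TPM) and Isl1 (2.94 ± 1.18 TPM), while with vehicle Twist1 (4.13 ± 0.37 TPM) came before Snai2 (2.16 ± 0.176 TPM) and Isl1 (1.95 ± 0.419 TPM). Tbx20, Foxc1, Kdr and Foxf1 had day 7 means between 0.957 and 1.98 TPM with VB6 and between 0.61 and 1.13 TPM with vehicle, and Hand2 and Meox1 were lowest in both arms. Twist1 and Isl1 with VB6, and Snai2 and Isl1 with vehicle, were neighbours in this order that did not differ beyond their spread. The highest group was the same in CPM and TPM for all 10 genes.

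**Figure D2:**
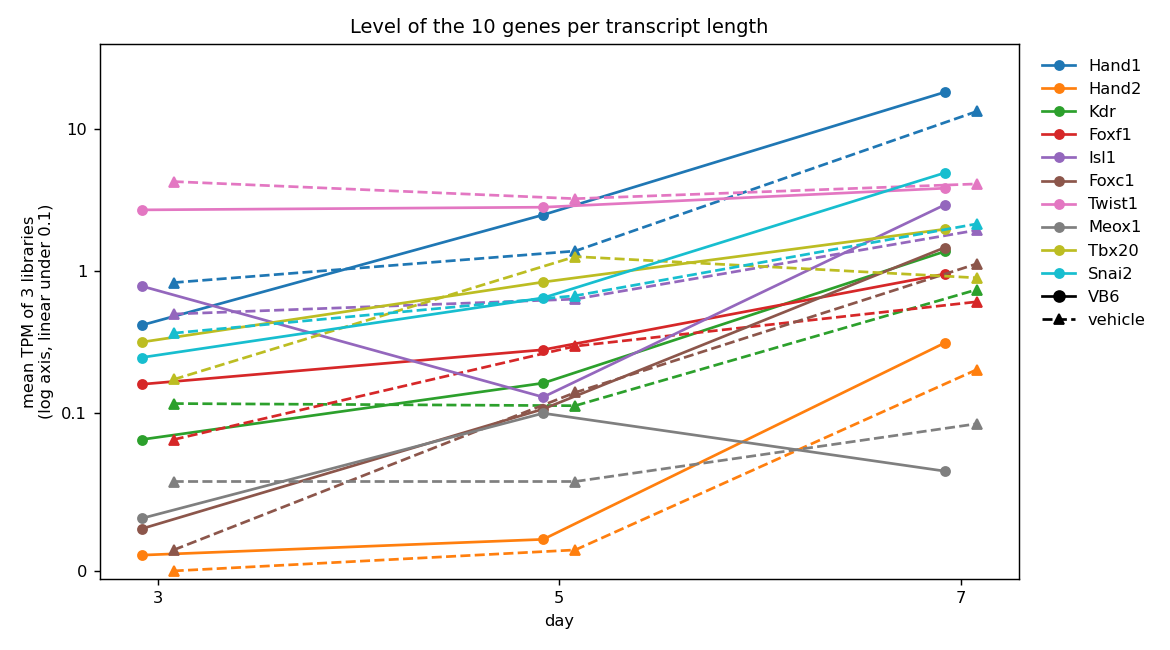
Mean TPM of 3 libraries (y axis, logarithmic above 0.1 and linear below it) of the 10 genes at days 3, 5 and 7 (x axis), with circles and full lines for VB6 and triangles and dashed lines for vehicle. Hand1 ended at 18.3 TPM with VB6 and 13.4 TPM with vehicle and crossed Twist1, which was between 2.71 and 4.29 TPM throughout.

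On leaving standard culture the genes did not move as a group. Comparing vehicle day 3 with ES, Hand1 fell by 2.06 ± 0.23 on the log2 scale (SE; adjusted p = 4.67e-08, edgeR quasi-likelihood test), to a mean of 1.1 ± 0.238 CPM in vehicle day 3, against 4.62 ± 0.703 CPM in ES. Isl1 rose by 1.89 ± 0.60 (adjusted p = 0.00875, edgeR) and Tbx20 by 0.97 ± 0.38 (adjusted p = 0.0276, edgeR). The other 5 tested genes did not pass. These are 2 higher and 1 lower of 8, where 33.1% of all 18901 genes tested were higher and 31.8% were lower. The Tbx20 call was lost in the fit corrected for GC content and length (0.78, adjusted p = 0.0729, edgeR) and without ES replicate 1 (0.60, adjusted p = 0.165, edgeR). In TPM Isl1 was 0.69 (adjusted p = 0.0525, limma) and Tbx20 0.28 (adjusted p = 0.409, limma), so that Hand1 alone kept its call there, and in a fit of these 2 groups alone Isl1 was not tested and Tbx20 did not pass (0.98, adjusted p = 0.0768, edgeR).

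Between day 3 and day 5, Foxc1 and Tbx20 rose in both arms, Foxc1 from few reads. With VB6 the Foxc1 counts were 4, 2 and 1 at day 3 and 9, 14 and 4 at day 5. With vehicle they were 1, 2 and 0 at day 3 and 8, 10 and 9 at day 5. In fits of only the groups compared, Foxc1 was not tested for this step in either arm. With VB6, Hand1 (2.44 ± 0.27), Foxc1 (1.95 ± 0.62), Tbx20 (1.85 ± 0.27) and Snai2 (1.25 ± 0.41) were higher at day 5, in log2 fold change with SE, and Isl1 was lower (-2.27 ± 0.57), with adjusted p from 7.1e-08 for Hand1 to 0.0117 for Snai2 (edgeR). That is 4 higher and 1 lower of the 8 tested, against 29.9% of all genes higher and 26.4% lower. With vehicle, Foxc1 (2.99 ± 0.74) and Tbx20 (1.94 ± 0.27) were higher and Twist1 was lower (-0.74 ± 0.19, adjusted p = 0.00176, edgeR). These 2 higher and 1 lower of 8 compare with 31.9% of all genes higher and 33.4% lower. For Hand1 the vehicle step was 0.40 ± 0.28 and did not pass (adjusted p = 0.222, edgeR). After the GC and length correction, Twist1 in vehicle was -0.21 (adjusted p = 0.357, edgeR) while Hand1 (0.83, adjusted p = 0.00485, edgeR) and Foxf1 (1.56, adjusted p = 0.0472, edgeR) were higher in vehicle. With the replicate block added to the correction, 3 were called in vehicle (Hand1, Foxc1 and Tbx20). In TPM the Foxc1 step with VB6 was 0.20 and did not pass (adjusted p = 0.233, limma), and in vehicle Hand1 (0.51, adjusted p = 0.0193, limma) and Snai2 (0.46, adjusted p = 0.0347, limma) passed while Twist1 did not (-0.35, adjusted p = 0.0675, limma). Without VB6 day 3 replicate 3, the calls of Foxc1 (1.57) and Snai2 (0.94) in the VB6 arm were lost.

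The step from day 5 to day 7 moved most of the genes. Foxf1, Isl1 and Foxc1 could enter the test only by being high at day 7, so the counts against all genes are a description. With VB6, Isl1 (4.13 ± 0.50), Foxc1 (3.38 ± 0.36), Kdr (2.75 ± 0.28), Snai2 (2.62 ± 0.29), Hand1 (2.58 ± 0.18), Tbx20 (1.65 ± 0.21) and Foxf1 (1.42 ± 0.48) rose in log2 fold change, which is 7 higher of 8 tested, against 27.3% of all genes. Twist1 had 0.14 ± 0.20 (adjusted p = 0.589, edgeR) from counts, and was higher after the correction (0.51, adjusted p = 0.0386, edgeR) and in TPM (0.40, adjusted p = 0.0436, limma). With vehicle, 8 of 8 were higher, against 35.2% of all genes: Hand1 (3.49 ± 0.20), Foxc1 (3.24 ± 0.36), Kdr (2.91 ± 0.31), Isl1 (2.61 ± 0.46), Snai2 (1.88 ± 0.31), Foxf1 (1.24 ± 0.51), Tbx20 (0.94 ± 0.21) and Twist1 (0.53 ± 0.19). Of these vehicle calls, Foxf1 (adjusted p = 0.0357, edgeR) and Twist1 (adjusted p = 0.0189, edgeR) were the ones nearest the threshold, and after the correction Foxf1 was 0.84 (adjusted p = 0.153, edgeR) and Twist1 turned to -0.26 (adjusted p = 0.277, edgeR). In TPM the vehicle step of Tbx20 turned to -0.31 (adjusted p = 0.345, limma).

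**Figure D3:**
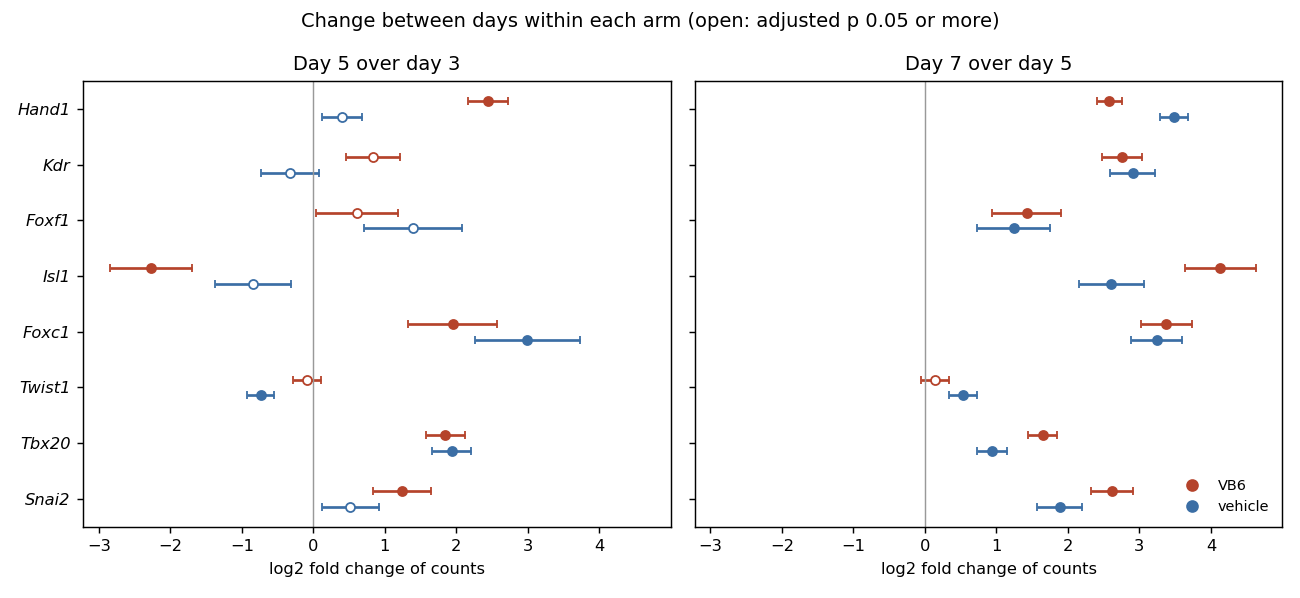
Log2 fold change of counts (x axis, with SE bars) of the 8 tested genes (rows) from day 3 to day 5 (left panel) and from day 5 to day 7 (right panel), VB6 above vehicle in each row; filled points passed an adjusted p of 0.05 in edgeR and open points did not. All points of the right panel lie above 0, from 0.14 for Twist1 to 4.13 for Isl1, both with VB6.

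Vehicle day 3 against ES has no group of short fragments on either side. The steps between days 3, 5 and 7, except that from day 3 to day 5 with VB6, have such a group on 1 side. The change from day 3 to day 7 was therefore also taken. The limit on Foxf1, Isl1 and Foxc1, which entered the test through day 7, holds for its counts too. Foxc1 had 1, 2 and 0 counts in the vehicle day 3 libraries and 4, 2 and 1 in those of VB6 day 3. The size of its change from day 3 therefore rests on few reads in both arms. In the vehicle arm neither group of this comparison had short fragments: 7 of 8 were higher, against 34.3% of all genes, with log2 fold changes of 6.23 ± 0.52 for Foxc1, 3.88 ± 0.21 for Hand1, 2.87 ± 0.25 for Tbx20, 2.63 ± 0.61 for Foxf1, 2.58 ± 0.30 for Kdr, 2.40 ± 0.33 for Snai2 and 1.77 ± 0.42 for Isl1. Twist1 was -0.20 ± 0.18 (adjusted p = 0.337, edgeR), and was lower at day 7 after the correction (-0.47, adjusted p = 0.0292, edgeR). In a fit without the libraries of vehicle day 5 and VB6 day 7, chosen after seeing the data, these 7 values ran from 1.77 to 6.23 and all passed. In the VB6 arm, with the short fragments on the day 7 side, 7 of 8 were higher, against 36.1% of all genes, with Foxc1 at 5.32 ± 0.45, Hand1 at 5.02 ± 0.23, Snai2 at 3.86 ± 0.33, Kdr at 3.59 ± 0.30 and Tbx20 at 3.49 ± 0.25. Isl1 (1.86 ± 0.38) and Foxf1 (2.03 ± 0.51) rose least among the called genes in that arm. Twist1 was called higher there in TPM alone of the alternatives (0.46, adjusted p = 0.017, limma).

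VB6 had no called effect on the set at day 3. Of the 8 tested genes 0 passed, where 4.26% of all genes did. DESeq2 also called 0, but gave no adjusted p for Kdr, Foxf1, Isl1, Foxc1 and Snai2, so it could not call these. Unadjusted p was under 0.05 for 2 of them, Hand1 (log2 fold change -0.94 ± 0.33, adjusted p = 0.111, edgeR) and Twist1 (-0.60 ± 0.19, adjusted p = 0.0674, edgeR), both with all VB6 libraries below all vehicle libraries.

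At day 5, 1 of 8 genes was higher with VB6, against 31.2% of all genes, and that gene was Hand1, at 3.14 ± 0.471 CPM with VB6 and 1.45 ± 0.158 CPM with vehicle (SD, n = 3 each). Its log2 fold change was 1.11 ± 0.23 (adjusted p = 0.000288, edgeR). The correction for GC content and length took this to 0.39 ± 0.20 (adjusted p = 0.138, edgeR), and under it Kdr (0.98 ± 0.38, adjusted p = 0.0445, edgeR) was higher and Twist1 (-0.74 ± 0.21, adjusted p = 0.0066, edgeR) lower with VB6. Isl1, whose VB6 libraries all lay below the vehicle libraries, was -0.99 ± 0.67 without the correction and did not pass (adjusted p = 0.22, edgeR), but was called lower with VB6 in TPM (-0.83, adjusted p = 0.0236, limma). That call rests on 4, 5 and 5 vehicle counts. The effective length implied by counts and TPM was 585.9 and 545.5 nt in vehicle replicates 2 and 3, against up to 1530 nt in other libraries. The median of all genes in TPM was -0.16 at day 5. Uncorrected, Kdr was 0.79 ± 0.38 (adjusted p = 0.0796, edgeR) and Twist1 0.05 ± 0.20 (adjusted p = 0.857, edgeR). The day 5 difference of Hand1, Kdr and Twist1 thus changed its side of the threshold with the correction. With the replicate block added to it, Twist1 was the 1 gene called.

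At day 7, 3 of 8 genes were higher with VB6, against 18.6% of all genes. Snai2 averaged 5.42 ± 0.521 CPM with VB6 and 2.84 ± 0.282 CPM with vehicle, a log2 fold change of 0.93 ± 0.26 (adjusted p = 0.00594, edgeR), and passed under every alternative run, with 0.72 ± 0.25 after the correction (adjusted p = 0.0345, edgeR). Tbx20 averaged 8.24 ± 0.574 CPM with VB6 and 5.61 ± 0.861 CPM with vehicle (0.55 ± 0.19, adjusted p = 0.0251, edgeR), and Kdr 4.83 ± 1.25 CPM with VB6 and 3.11 ± 0.621 CPM with vehicle (0.63 ± 0.23, adjusted p = 0.0363, edgeR). Both lost their calls after the correction, where Tbx20 was 0.28 (adjusted p = 0.293, edgeR) and Kdr 0.41 (adjusted p = 0.201, edgeR). Of the 6 fits that left out 1 library of this day, 4 lost the Tbx20 call (values of 0.48 to 0.68 and adjusted p of 0.0189 to 0.0993 over the 6, edgeR) and 3 lost that of Kdr (0.40 to 0.81, adjusted p of 0.0279 to 0.257, edgeR). Tbx20 was lost without VB6 replicate 1 or 2 or without vehicle replicate 1 or 3, and Kdr without VB6 replicate 3, the library at 6.27 CPM, or without vehicle replicate 2 or 3. Kdr also missed the threshold with no low count filter (adjusted p = 0.113, edgeR) and in DESeq2 (adjusted p = 0.0677). Hand1 was 0.20 ± 0.15 (adjusted p = 0.323, edgeR) and passed after the correction, at 0.50 ± 0.12 (adjusted p = 0.00299, edgeR), and in TPM (0.46, adjusted p = 0.0488, limma). Twist1, with all VB6 libraries below all vehicle libraries, was -0.35 ± 0.19 (adjusted p = 0.164, edgeR) and 0.03 ± 0.20 after the correction.

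**Figure D4:**
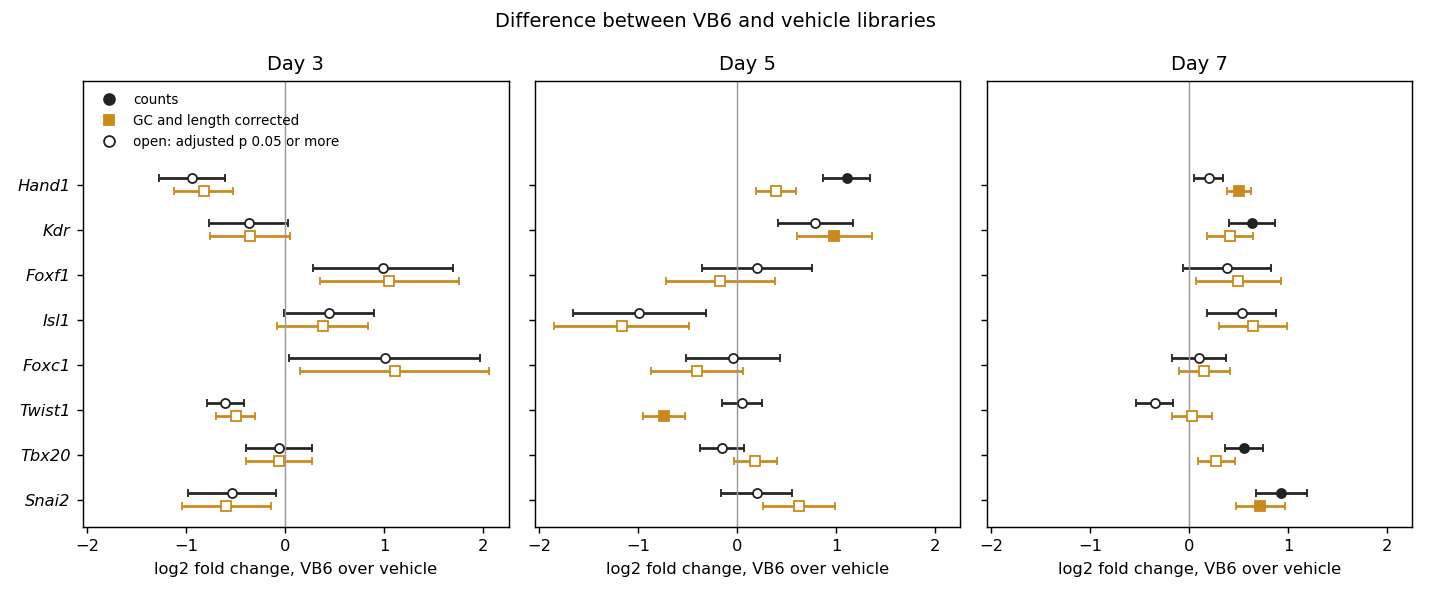
Log2 fold change of VB6 over vehicle (x axis, with SE bars) of the 8 tested genes (rows) at days 3, 5 and 7 (panels); black circles are counts, orange squares are counts corrected for GC content and length, and filled symbols passed an adjusted p of 0.05 in edgeR. Hand1 was at 1.11 at day 5 from counts and 0.39 after the correction, while Snai2 at day 7 was filled in both, at 0.93 and 0.72.

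Taken as the mean of the 3 days, 0 of 8 genes differed between VB6 and vehicle, against 11.7% of all genes. Twist1 came nearest, at -0.30 ± 0.11 (unadjusted p under 0.05, adjusted p = 0.0814, edgeR), and was the 1 gene called after the correction (-0.40, adjusted p = 0.0249, edgeR). DESeq2 called 0. The daily differences were not equal for 2 of 8 genes, against 60.0% of all genes in the same test with 2 degrees of freedom: Hand1, whose largest and smallest daily differences lay 2.05 apart (adjusted p = 0.000472, edgeR), and Snai2, with 1.46 (adjusted p = 0.0406, edgeR). For Hand1 the difference was -0.94 at day 3, 1.11 at day 5 and 0.20 at day 7, and for Snai2 it was -0.53, 0.20 and 0.93. Snai2 lost this call after the correction (1.31, adjusted p = 0.096, edgeR), with no low count filter (1.43, adjusted p = 0.0718, edgeR) and in 13 of the 18 fits that left out 1 library, with values from 1.11 to 1.52 in those fits.

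Hand2 and Meox1 were tested only in the fit with no filter, where neither differed between VB6 and vehicle on any day. In that fit Hand2 was higher at day 7 than at day 5 with VB6 (log2 fold change 3.29 ± 1.10, adjusted p = 0.0144, edgeR) and with vehicle (3.71 ± 1.24, adjusted p = 0.0109, edgeR), from 2 counts and 1 count in the day 5 groups. The values of Meox1 in this fit ran from -1.40 ± 0.98 (vehicle day 3 against ES) to 1.38 ± 1.13 (VB6 day 5 against VB6 day 3), and none passed.

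Tbx20 shows how the unit bears on a gene with transcripts of very different length. Its 5 annotated transcripts run from 455 to 9091 nt, and the effective length implied by the deposited counts and TPM ran from 1137 nt in VB6 day 3 replicate 2 to 8841 nt in vehicle day 7 replicate 2. That VB6 day 3 library had 0.722 CPM, close to the 0.713 and 0.741 CPM of the other libraries of its group, and 0.71 TPM, against 0.09 and 0.15 TPM in them. With vehicle, Tbx20 averaged 1.27 ± 0.455 TPM at day 5 and 0.9 ± 0.139 TPM at day 7, while in CPM it averaged 2.92 ± 0.865 at day 5 and 5.61 ± 0.861 at day 7. Isl1, with 5 annotated transcripts of 588 to 2516 nt, varied likewise. The 3 libraries with VB6 at day 7 had 1.98, 1.91 and 2.04 TPM of Tbx20, against 0.99, 0.97 and 0.74 TPM with vehicle, so at day 7 the arms stood apart in both units.

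**Figure D5:**
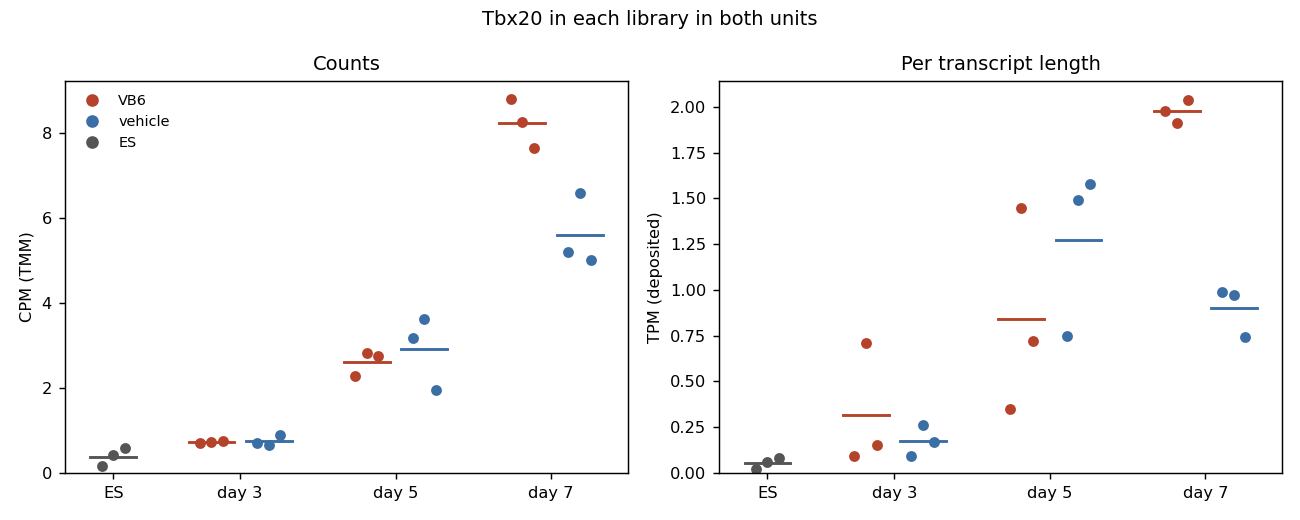
Tbx20 in the 21 libraries as CPM (left, y axis from 0) and as deposited TPM (right, y axis from 0), with VB6 left of vehicle at each day; points are libraries and bars group means. At day 5 the vehicle mean was 2.92 CPM and 1.27 TPM and at day 7 it was 5.61 CPM and 0.9 TPM, so the units gave the vehicle arm opposite orders.

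Other genes of the same pathways are given by counts of called genes from day 5 to day 7 in the vehicle arm, with the median log2 fold change beside 0.02 over all genes tested, of which 35.2% were higher and 31.1% lower. Among genes of lateral plate and cardiac mesoderm, 8 of 12 tested rose and 1 fell (median 0.81). Irx3 was at 4.17 ± 0.19, Hopx, a cofactor in heart muscle, at 2.54 ± 0.15 and Gata4, a zinc finger factor of heart and endoderm, at 0.76 ± 0.08. Other genes of this list were low in vehicle day 7, with means of 0.246 CPM for Nkx2-5, 0.0738 for Tbx5, 0.0376 for Tcf21 and 0.285 for Myl7. Tnnt2 averaged 1.11 CPM there and Actc1 5.74 CPM. Of the BMP ligands and targets 12 of 12 rose (median 1.71), among them Id3 (2.63 ± 0.07), Id1 (1.99 ± 0.08), Bmp4 (3.34 ± 0.19) and Bmp7 (1.86 ± 0.11). Fibroblast and smooth muscle genes had 9 of 10 higher and 1 lower (median 2.82), with the collagen gene Col1a2 at 5.99 ± 0.19 and the actin gene Acta2 at 3.74 ± 0.12. In epithelial to mesenchymal transition, 7 of 9 rose and 2 fell (median 2.05): Vim rose by 2.75 ± 0.11, Fn1 by 1.34 ± 0.07 and the repressors Zeb2 and Zeb1 by 2.05 ± 0.15 and 2.27 ± 0.18. The 2 that fell were the epithelial genes of the list, Cdh1 (719 to 434 CPM) and Epcam (208 to 170 CPM). The median of this list therefore mixes epithelial genes with the rest. Among the genes of blood and endothelium, 2 of 11 rose and 5 fell (median -0.71): Gata2 rose by 2.19 ± 0.22, and Pecam1 (-0.74 ± 0.12), Tek (-1.12 ± 0.20) and Cd34 (-1.26 ± 0.25) fell. Among VEGF ligands and the other receptors 6 of 9 rose and 2 fell (median 1.04), with the VEGF co-receptor Nrp2 at 1.99 ± 0.13, the receptor Flt1 at 1.17 ± 0.09 and the ligands Vegfa at 1.13 ± 0.09 and Vegfc at 2.06 ± 0.27. Paraxial and somite genes had 3 of 7 higher and 0 lower (median 0.05), and genes of the primitive streak had 4 of 8 higher and 3 lower (median 0.54). Of the paralogues of the members 5 of 7 rose and 2 fell (median 1.78), with Flt1 at 1.17 ± 0.09, Snai1 at 2.25 ± 0.19, Twist2 at 4.14 ± 0.48 and Isl2 at 2.25 ± 0.66. The balance of calls turned in 2 of these lists with the correction for GC content and length: primitive streak genes then had 0 higher and 4 lower (2 and 3 by limma on TPM), and paraxial genes 2 higher and 3 lower (3 and 2 by limma on TPM). Lateral plate and cardiac genes had 4 higher and 3 lower with the correction.

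Between VB6 and vehicle, 31.2% of all genes were higher and 25.5% lower at day 5, and 18.6% were higher and 17.9% lower at day 7. At day 5, 9 of 12 BMP genes were higher with VB6 and 0 lower (median 0.84, against 0.05 over all genes), led by Id3 (1.38 ± 0.07) and Id1 (1.14 ± 0.08). At day 7, 0 were higher and 5 were lower (median -0.17, against 0.01 over all genes), led by Id3 (-1.07 ± 0.07) and Id1 (-0.89 ± 0.07). With the correction for GC content and length the BMP list had 7 higher and 1 lower at day 5, and 1 higher and 4 lower at day 7. By limma on TPM it had 6 higher and 1 lower at day 5, but 2 higher and 2 lower at day 7 (median 0.09). Its day 7 direction was thus not the same in all settings, and the reason was not tested. Lateral plate and cardiac genes had 7 of 12 higher and 0 lower at day 5, and 1 higher (Mef2c, a factor of heart and skeletal muscle, 1.39 ± 0.34) and 1 lower (Irx3, -0.99 ± 0.14) at day 7. These counts were 3 higher and 1 lower at day 5 with the correction and 2 and 0 by limma on TPM, and 3 and 1 or 5 and 1 at day 7. Primitive streak genes had 1 higher (Wnt3, 0.58 ± 0.18) and 3 lower of 8 at day 5, among them the T-box factor Eomes (-0.41 ± 0.12) and the homeobox factor Mixl1 (-0.69 ± 0.25), and 0 higher and 2 lower at day 7, Gsc (-1.57 ± 0.33) and Wnt3 (-0.54 ± 0.18). With the correction they had 0 higher and 4 lower at day 5 and 0 and 1 at day 7, and by limma on TPM 0 and 3, and 0 and 1. Paraxial genes had 3 higher and 0 lower of 7 at day 5, led by Tcf15 (1.56 ± 0.16) and the Notch modulator Lfng (1.17 ± 0.18), and 0 higher and 2 lower at day 7, the same genes at -1.72 ± 0.26 and -0.69 ± 0.15. With the correction these were 1 and 1 at day 5 and 1 and 2 at day 7, and by limma on TPM 2 and 1, and 1 and 1. In epithelial to mesenchymal transition, the list nearest to Snai2, 3 of 9 were higher with VB6 at day 7, Fn1 (0.45 ± 0.07), Zeb1 (0.63 ± 0.14) and Cdh2 (0.38 ± 0.10), and 1 was lower, Twist2 (-0.90 ± 0.35), while the correction gave 4 and 0 and limma on TPM 5 and 1. At day 5 this list had 5 higher and 1 lower, but 1 and 2 with the correction and 2 and 3 by limma on TPM. Fibroblast and smooth muscle genes had 5 of 10 higher and 0 lower at day 5, and 4 higher and 2 lower at day 7 (4 and 1 with the correction, and 5 and 0 by limma on TPM). Of the VEGF list Flt1 (0.71 ± 0.09) was higher and Pgf (-0.71 ± 0.19) lower at day 7, and of blood and endothelium Pecam1 (0.44 ± 0.13) was higher. With the correction the VEGF list had 2 higher and 0 lower at day 7 and the blood and endothelium list had 0 called, and by limma on TPM they had 4 higher and 1 lower, and 1 higher and 0 lower. These day 5 and day 7 differences lie on the same split of fragment length as those of the members.

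Markers of other cell types that use some of the members were read in the same libraries, and their part in the results was not tested. The markers named were chosen after their values were seen. The summed level of 8 visceral endoderm genes was 5420 to 6800 CPM in VB6 day 7 and 4280 to 4560 CPM in vehicle day 7, against 39.6 to 44.2 CPM in ES libraries, where Afp was at 0. Of these 8 genes 3 were higher with VB6 at day 7, namely Apob (0.73 ± 0.09), Cubn (0.64 ± 0.10) and Afp (0.41 ± 0.11), and 2 were lower, among them Amn (-0.66 ± 0.11), with a median of -0.05. With the correction 3 were higher and 0 lower. That of 8 trophoblast genes, a layer in which Hand1 is known, was 68.6 to 79.6 CPM in VB6 day 7, 57.7 to 79.2 CPM in vehicle day 7 and 56.3 to 69.0 CPM in ES, with Prl3d1 and Tpbpa, which mark its giant cells and spongiotrophoblast, at 0 in all libraries of all groups. The genes within that sum differed in direction. Tfap2c and Ascl2 were highest in ES: Tfap2c averaged 13.6 CPM with VB6 at day 7 and 12.6 CPM with vehicle, against 43.9 CPM in ES. Krt7 averaged 40.4 CPM with VB6 at day 7 and 35.8 CPM with vehicle, against 6.21 CPM in ES. Gata3 averaged 12.3 CPM with VB6 at day 7 and 13.5 CPM with vehicle, against 0.0174 CPM in ES, and Cdx2 likewise was higher in every day 7 library than in ES. Against vehicle day 5, vehicle day 7 was higher in 4 of the 5 trophoblast genes tested and lower in 1 (Ascl2), and between the arms 0 of 5 differed at day 7 (1 was higher with VB6 with the correction and 1 by limma on TPM). The 7 neural crest genes, which go with Twist1 and Snai2, summed to 67.4 to 86.2 CPM in VB6 day 7 and 73.5 to 79.8 CPM in vehicle day 7. Ets1 was the largest part, at 47.8 CPM with VB6 and 46.7 CPM with vehicle. Foxd3 averaged 1.15 CPM in both day 7 groups, against 6.31 CPM in ES, and Ngfr was also lower than in ES. Pax3 averaged 7.77 CPM with VB6 and 8.13 CPM with vehicle at day 7, against 0.0697 CPM in ES. Tfap2a and Sox9 were also higher at day 7 than in ES. Between the arms 0 of 7 differed at day 7, where 18.6% of all genes were higher and 17.9% lower. By limma on TPM 2 of the 7 were higher with VB6. The 8 neural genes, which go with Isl1, summed to 62.7 to 82.4 CPM in VB6 day 7 and 114 to 126 CPM in vehicle day 7, with 0 of 5 tested higher and 3 lower with VB6 (0 and 2 with the correction, and 1 and 1 by limma on TPM). The pluripotent cell genes summed to 266 to 302 CPM in VB6 day 7 and 314 to 362 CPM in vehicle day 7.

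Genes most like each member over the 21 libraries were found by Pearson correlation of log2 CPM, given as a description, since the points share groups and depth. Other genes with a correlation over 0.9 numbered 904 for Tbx20, 363 for Foxc1, 333 for Hand1, 142 for Kdr and 131 for Snai2. For Isl1 there were 8, for Foxf1 5 and for Twist1 0. Where many genes passed 0.9, those named are not particular to the member. Closest to Hand1 were Igfbp4 (0.988), Six5 (0.986) and Fstl1 (0.980), and closest to Kdr were Col8a1 (0.969), Tfap2b (0.967) and St3gal5 (0.964). Foxc1 was nearest to Rcn2 (0.973), Rbms2 (0.972) and Nrip1 (0.966), and Tbx20 to Tulp4 (0.985), Nudt11 (0.985) and Ube2j1 (0.980). Snai2 had Nfya (0.962), Hp1bp3 (0.953) and S1pr1 (0.952), Isl1 had Igfbp5 (0.932), Tfap2a (0.931) and Sema3d (0.929), and Foxf1 had Tlr5 (0.935), Myocd (0.920) and Nrp1 (0.905). Twist1 reached 0.759 with Smad7, 0.755 with Mtrf1 and 0.754 with Fgf22. Among the members themselves, the closest included Foxc1 with Snai2 (0.909) and Hand1 with Kdr (0.899), and Twist1 ran from -0.360 with Tbx20 to 0.144 with Hand1.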

How the data were processed

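RNA from 21 libraries was analysed in 7 groups of 3 taken from the labels. The authors deposited expected counts (estimated counts per gene, not normalized; 26.9 to 30.5% of values above 0 were not whole), TPM and FPKM, per the file headers. Their build was mm10, per the submitters' processing notes; no aligner or counting program is stated. The labels' protocols name total RNA and, for the library step, a selection of small RNA, so the library type is uncertain. The labels do not say whether replicates were separate cultures, so p-values measure the spread between libraries, which may be technical. Members and gene lists were chosen with earlier results of these data known.

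Expected counts were rounded (the design had assumed whole counts), filtered with filterByExpr (18901 genes), TMM scaled and tested with edgeR 4.0.16 in R 4.3.3 (quasi-likelihood, all 21 libraries, a mean per group), with Benjamini-Hochberg adjustment over all 18901 genes and calls at 0.05. SE was derived from the log2 fold change and F. Fits with a 5-df spline offset for GC content and length (17347 genes), DESeq2 1.42.0 and limma 3.58.1 on log2(TPM + 0.5) were alternatives, as were other filters, libraries and size factors. FPKM served only, with counts and transcript length, to derive fragment length over 578 genes. The script was tested on simulated data. Chi-square per gene between libraries of a group was 2.16 to 15.0, above the 1 of counting error. Floors and bounds cover counting error only, and those of Hand2 only that of the group at 0. Named genes were all members, up to 4 genes per pathway list with the smallest p in the comparison described, and the 3 genes most like each tested member. Further lateral plate and cardiac genes were named for their levels, and Cdh1 and Epcam as the genes of their list that fell.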

Additional observations from a re-analysis of the deposited data

Results flagged for a closer look

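For 2 of the 8 tested genes the difference between VB6 and vehicle was not the same on the 3 days (edgeR, 2 degrees of freedom). Over all genes tested, 60.0% were called in the same test. Hand1 had a spread of 2.05 between its largest and smallest daily log2 difference (adjusted p = 0.000472, edgeR), with all 3 VB6 libraries below the vehicle libraries at day 3 and all 3 above them at day 5. Snai2 had a spread of 1.46 (adjusted p = 0.0406, edgeR), with all 3 VB6 libraries above the vehicle libraries at day 7 only. After the correction for GC content and length the spread was 1.33 for Hand1 (adjusted p = 0.00456, edgeR) and 1.31 for Snai2 (adjusted p = 0.096, edgeR). Snai2 also lost its call in 13 of the 18 fits that left out 1 library. The short fragments were on the vehicle side at day 5 and on the VB6 side at day 7.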

How the results depend on the processing

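Of 1737 values of single genes under an alternative setting or without 1 library, 1636 kept their side of the threshold (and their direction, where called), 67 lost their call, 29 gained one and 5 turned direction: Twist1 between VB6 and vehicle at day 5 with the GC and length correction (-0.74, and -0.75 with the replicate block added), Twist1 between vehicle day 7 and day 5 with the same corrections (both -0.26), and Tbx20 in that comparison in TPM (-0.31). The numbers of the 8 tested genes called moved by more than 1.5 times as follows. With the correction, 2 were called at day 5 (against 1), 1 in the mean over days (against 0; also 1 with the block added) and 1 for unequal days (against 2; also 1 with the block added). In TPM with limma, 2 were called at day 5, 5 for unequal days and 1 for vehicle day 3 against ES (against 3). With an adjusted p under 0.01, 1 was called at day 7 (against 3), 1 for unequal days and 3 for VB6 day 5 against day 3 (against 5). With no low count filter 1 was called for unequal days, and with only the groups compared 1 for vehicle day 3 against ES. Smaller moves included 2 calls at day 7 with the correction, DESeq2 or no filter and 4 in TPM, 3 for unequal days with only the groups compared, 4 (correction and TPM) or 2 (only the groups compared) for vehicle day 5 against day 3, against 3, and 6 (correction and TPM) or 7 (DESeq2 and only the groups compared) for vehicle day 7 against day 5, against 8. At day 5 with the correction and the block, 1 was called, Twist1 in place of Hand1. Leaving out 1 library at a time gave 1 to 2 calls at day 5, 1 to 2 at day 7, 0 to 1 in the mean over days and 1 to 2 for unequal days; vehicle day 5 replicate 1, when left out, brought Kdr at day 5 past the threshold. The cause of these moves was not tested. Libraries of the same replicate number were not clearly more alike than others. Their correlation of deviations had a median of 0.0183 (-0.475 to 0.534) over 63 pairs, 20 of them over 0.1. Pairs of other numbers had a median of -0.00247 (-0.431 to 0.58), with 34 of 126 over 0.1. The replicate block alone changed no call of a member: 1 was called at day 5 and 3 at day 7.

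On the TPM scale the median of all genes tested lay at 0.23 for VB6 against vehicle at day 7 and at -0.16 at day 5, so that 82.7% of called genes were higher with VB6 at day 7 (51.1% by counts) and 31.3% at day 5 (55.1% by counts). The share also moved in the mean over days (39.6% in TPM, 56% by counts), at day 3 (22.5% and 34.9%), for vehicle day 5 against day 3 (71.4% and 48.9%), vehicle day 7 against day 5 (37.8% and 53.1%), VB6 day 5 against day 3 (67.8% and 53.1%), VB6 day 7 against day 5 (75.3% and 50%) and VB6 day 7 against day 3 (72.8% and 50.9%). All genes called at day 3, 805 in all, were 2104 with only the groups compared, 1393 with no filter, 253 in TPM and 192 without vehicle day 3 replicate 2. With the correction 6579 were called at day 5 (against 10716) and 4470 at day 7 (against 6899). Depth limits Hand2 and Meox1 most.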
